A study of Drosophila melanogaster with 3 samples.

Results

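The cad gene of Drosophila melanogaster encodes Caudal, the homeodomain transcription factor whose chromatin binding was profiled here, so the locus is at once the gene of the tagged protein and a possible target of it. The locus was taken as the 150 kb window of chromosome arm 2L that begins at position 20700001 (BDGP5 coordinates). The cad gene lies near the stretch from 67 to 85 kb into this window, an approximate 18 kb called the gene interval here. Peaks belonged to it when their midpoint fell in that window, so the members were chosen by position alone. There were 17 such peaks among 1281 on 2L and 7579 in the whole list.

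Caudal belongs to the Cdx family of homeodomain proteins. It is known for posterior patterning of the embryo, where its protein forms a gradient that is highest at the posterior end, and for its work in the adult intestine, where it acts in epithelial identity and in the control of antimicrobial peptide genes. A transcription factor that binds its own gene can take part in autoregulation, but a peak records where chromatin was recovered and not whether transcription changed.

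The series compared anti-GFP chromatin immunoprecipitation (ChIP) with input chromatin, both at the stage labelled 3dFemale and from the source labelled 7T. The 1 ChIP sample carried the transgene named cad-GFP, its title covers replicates 1 and 2, and the antibody was labelled NWG-GFP. The 2 input samples share the source and stage labels and the formaldehyde concentration of the ChIP sample, and no values of them were analysed here. The growth text names y w, VK33 flies and describes collecting embryos, which does not match the stage label. The tissue, the promoter driving the transgene, the length of DNA it carries and the state of the endogenous cad gene are not stated in the labels used here. Reads from a transgenic copy of cad would carry the same sequence as the endogenous gene and would be placed on the same 2L coordinates, so signal from both copies cannot be told apart in these peaks. Any such copy would touch each result below that lies within the stretch it carries.

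Both ChIP replicates are represented by a single peak list. The values therefore carry no error between replicates, no test between samples was possible and the read depth is unknown. Each peak has a score on the authors' scale, which is not defined in the file. Across the list it ran from a floor of 50 to 3145.59 with a pile-up of 29 peaks at 3100. It was used only to order and describe peaks within this list. The 17 peaks were numbered 1 to 17 from the lower to the higher coordinate, and starts are counted from 1.

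Peaks covered most of the cad gene interval. It held 5 peaks, numbers 6 to 10, and 14966 bp of its 18 kb (83.1%) lay inside a peak, against 22.9% of the rest of the window and 9.82% of 2L outside the window. Peak density was 2.78 per 10 kb in the gene interval, 0.909 in the rest of the window and 0.556 on 2L outside the window. The interval is 12% of the window in length and carried 33.1% of its covered bases.

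The middle of the gene interval held its highest scores. Peak 8, at 2L 20771647 to 20777768, was 6122 bp wide with a score of 1352.17, and was the widest of the 17. Peak 9, at 20777892 to 20781762, followed after a gap of 123 bp, with a width of 3871 bp and a score of 1181.19. Together these neighbours covered 9993 bp, or 55.5% of the interval. By score they stood at the 45th and the 61st place on 2L.

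The flanks of that pair were unequal. On the low-coordinate side, peak 7 (20769864 to 20771341) was narrow at 1478 bp but had a score of 610.74, above 87.0% of the peaks of 2L. Beyond it, peak 6 (20767262 to 20769126) was 1865 bp wide and scored 235.01, near the 2L median of 195.54. On the high-coordinate side, peak 10 (20782255 to 20783884) was 1630 bp wide and scored 55.56, the lowest value of the window and above 3.75% of the peaks of 2L. Scores within the interval thus spanned most of the range of the window, with the lowest and the second highest of the 17 among its 5 peaks.

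**Figure D1:**
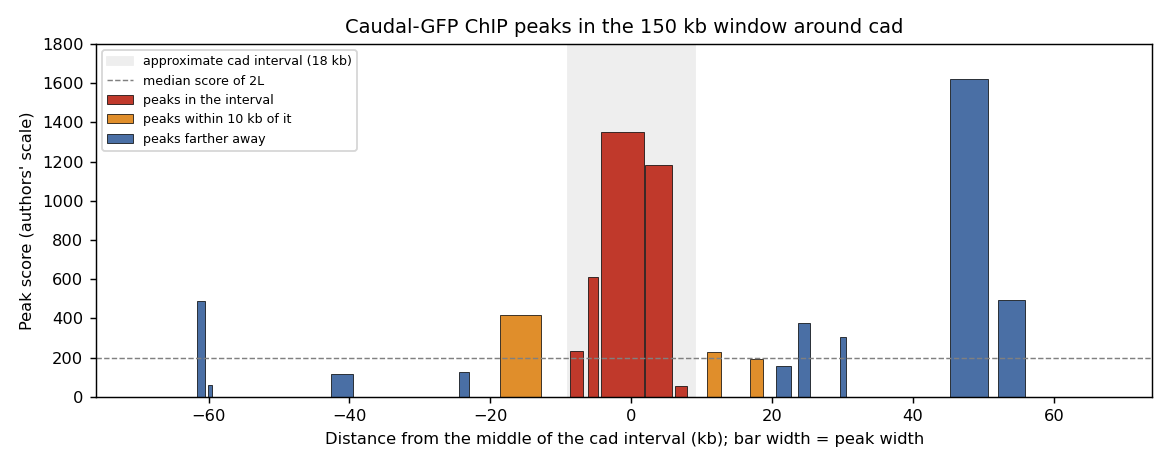
Peaks of the 150 kb window around cad, as bars with the peak's width on the horizontal axis (kb from the middle of the approximate gene interval) and the authors' score on the vertical axis. Red bars are the 5 peaks of the gene interval (grey band, 18 kb), orange bars the 3 peaks within 10 kb of it and blue bars the other 9, and the dashed line is the median score of 2L (195.54). Peaks 8 and 9 in the interval and peak 16 to the right are the bars above 1000.

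The peaks of the gene interval nearly touched. Their 4 gaps were 737, 305, 123 and 492 bp, a median of 398.5 bp, against 3801.5 bp between the edges of neighbours on 2L. Short gaps follow from the number of these peaks and the share of the interval they cover, so this is not a separate description. In the whole window, 4 of 16 neighbouring pairs (25%) had edges 500 bp or less apart, against 16.5% of pairs on 2L. Of these 4 pairs, 3 were in the gene interval, and the other was that of peaks 1 and 2 with 476 bp. Distances between midpoints in the window had a median of 5311 bp, against 6040.75 bp on 2L, and 43.75% of them were within 5 kb, against 43.1% on 2L. By midpoint distance the window as a whole was thus near its arm.

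**Figure D2:**
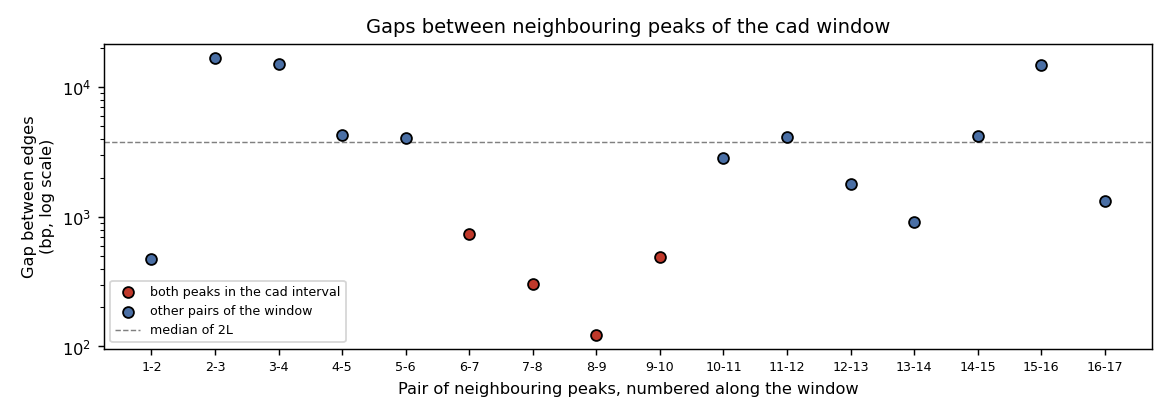
Gap between the edges of each pair of neighbouring peaks in the cad window (bp, log scale), in order along the window. Red points are the 4 pairs within the gene interval (123 to 737 bp), blue points the other 12 pairs, and the dashed line is the median gap of 2L (3801.5 bp).

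Peaks 7 to 10 formed 1 continuous block when gaps of up to 500 bp were bridged. It ran from 20769864 to 20783884, a width of 14021 bp of which 920 bp were gaps. Of the 1070 blocks that 2L gave by the same procedure, whose median width was 1496 bp, it was the fourth widest, and of the 6242 blocks of the list it held place 20. The wider ones on 2L were 1113452 to 1130138 (16687 bp), 6076776 to 6091949 (15174 bp) and 4994279 to 5008405 (14127 bp). The second of these was a single deposited peak, whereas the cad block was made of 4. Bridging gaps of up to 1000 bp added peak 6 and gave 16623 bp, which was again the fourth widest of 2L, while bridging up to 150 bp joined only peaks 8 and 9 and gave 10116 bp, the eighth widest.

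Few stretches of the arm were as densely filled. Among 22852 windows of 18 kb placed every 1 kb along 2L, 36 (0.158%) had at least as many covered bases as the gene interval, and these fell into 10 separate stretches, the cad locus among them. On the 5 large arms, 246 of 117300 such windows (0.210%) reached the same value. The number of peaks set the interval less apart, since 561 windows of 2L (2.45%) held 5 or more. As the interval is approximate, its edges were also moved. With 2 kb added on each side, 69.2% was covered and 0.578% of windows of that length had as much, and with 5 kb added 64.7% was covered and 0.376% had as much.

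Among neighbours on 2L with both scores at 1000 or more, peaks 8 and 9 were the closest pair. This comparison was chosen after seeing that pair, so it is a description only. It also depends on how the caller split broad enrichment. A region left as 1 peak, such as 6076776 to 6091949 (15174 bp, score 1890.37), cannot form such a pair. Scores of 1000 or more were held by 3 of the 17 peaks of the window (numbers 8, 9 and 16), or 17.6%, against 6.25% of the peaks of 2L. In only 5 of the 1280 neighbouring pairs of the arm did both peaks reach 1000. The gap in those 5 pairs was 123 bp at cad and 1536, 2987, 9748 and 16504 bp elsewhere. No peak of the window was at the cap of 3100, which 6 peaks of 2L had reached or passed.

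Immediately beside the gene interval, within 10 kb of its edges, lay 3 peaks. Peak 5 (20757300 to 20763210) on the low-coordinate side was 5911 bp wide, the second widest of the window, but scored only 417.06. Peaks 11 (20786745 to 20788679) and 12 (20792802 to 20794724) on the other side were alike, with widths of 1935 and 1923 bp and scores of 227.58 and 193.56, both near the 2L median. In the reference gene table, which is of another release and was used only for the order of genes, the nearest protein-coding genes are dia, Rhau and Ns4 on the low-coordinate side and Pomp, vari and CG9328 on the other. The gene dia encodes Diaphanous, a formin that nucleates actin filaments, Pomp a proteasome maturation protein and vari the septate junction protein Varicose. No peak was assigned to any of them.

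Farther out, peaks were unevenly placed. The 67 kb of the window left of the gene interval held 5 peaks with 18.2% covered, and the 65 kb right of it held 7 with 27.8% covered. On the left, peaks 1 (20714329 to 20715437, score 488.36) and 2 (20715914 to 20716431, score 59.93) stood close together. Peak 3 (20733356 to 20736505) stood alone with a score of 117.47. Peak 4 (20751555 to 20753032) scored 123.99 and lay 4267 bp before peak 5. Peak 2 was the narrowest of the window at 518 bp. On the right, peaks 13 to 15 lay between 20796516 and 20806447 with scores of 159.25 to 378.63 and widths of 838 to 2232 bp.

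The highest score of the window was not in the gene interval. Peak 16, at 20821235 to 20826671, scored 1623.33 with a width of 5437 bp, and its midpoint was 49.2 kb from that of peak 8. It stood at the 32nd place on 2L by score. Peak 17 (20828003 to 20831940) followed after 1331 bp with a score of 494.33. These peaks were separated from peak 15 by a peak-free gap of 14.8 kb, so the high scores in the gene interval and those of peaks 16 and 17 lay apart.

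The 17 peaks were bounded by peak-free stretches on both sides. From the first to the last they spanned 117.6 kb. Before peak 1 a stretch of 32.1 kb held no peak, and after peak 17 a stretch of 32.3 kb held none. Gaps that long or longer were 156 and 153 of the 1280 on 2L, so neither was rare. The peaks nearest the borders of the window were peak 1, 14.9 kb inside, and peak 17, 20.0 kb inside, and the nearest ones outside, with scores of 123.02 and 168.35, had midpoints 18.7 and 15.0 kb away, so no peak was near enough for the exact border to decide its membership.

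The peaks of the window were mostly wider than those of the arm. The median width was 1923 bp in the window, with quartiles of 1478 and 3871 bp, against 1323.5 bp on 2L outside it, and 14 of the 17 peaks were wider than the 2L median of 1334 bp. Widths of 3000 bp or more were held by 6 peaks (35.3%), against 13.8% on 2L. The median score was 302.96 in the window, against 195.18 on 2L outside it, and 11 of the 17 peaks scored above the 2L median. Scores under 100 were held by 2 peaks (11.8%), against 23.3% on 2L. In a list of this kind score and width come from the same reads, so these are not independent descriptions.

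For their width, the peaks of the window did not score high as a group. Each was set beside the other peaks of 2L whose width was 0.8 to 1.25 times its own, and 8 of the 17 lay above and 9 below the median score of those peaks. In the gene interval 3 of 5 lay above. Peak 9, with 1181.19 against a median of 467.65, and peak 7, with 610.74 against 198.885, were above 83.5% and 92.9% of peaks of like width, and peak 8, with 1352.17 against 879.135, was above 67.4%. Peak 10 was the reverse, with 55.56 against 242.75, above 1.95%. The broad peaks 3 and 5 were also low for their width, with 117.47 against 444.08 and 417.06 against 966.315.

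**Figure D3:**
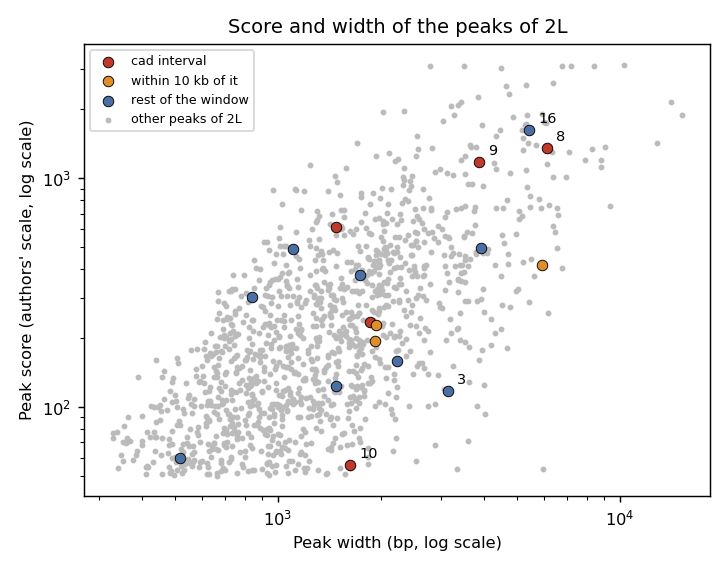
Score against width of the peaks of 2L (both axes log scale), with the 5 peaks of the cad interval in red, the 3 within 10 kb of it in orange, the other 9 of the window in blue and the remaining 1264 peaks of the arm in grey. Peaks 8, 9 and 16 lie at the upper right, and peaks 3 and 10 lie at the lower edge for their width.

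As a 150 kb stretch, the window was rich in peaks but not at the top of its arm. In place of random windows, 2L was cut into 151 complete tiles of 150 kb, of which the cad window is 1. It held 17 peaks, against a tile median of 8 (quartiles 3 and 13.5, maximum 32), and 9.93% of the tiles held as many or more. Across the 5 large arms, 15.1% of 776 tiles held 17 or more. By covered length the cad window stood higher on 2L, with 45172 bp (30.1%) against a tile median of 11621 bp and a maximum of 55656 bp. Only 4.64% of the tiles, its own included, had as much, which made it the seventh. The tile before it held 7 peaks with 7.75% covered and the tile after it held 15 with 18.3% covered.

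By the number of high-scoring peaks the cad tile was among the first. Its 3 peaks of score 1000 or more were the maximum of any 2L tile, shared with 2 others, and 31 of 776 tiles of the 5 large arms (3.99%) held 3 or more. Its median score was reached by 24 and its highest score by 29 of the 136 tiles that held a peak. Narrower stretches around the gene were also set against sliding windows of their own size. With windows of 150 kb in steps of 10 kb, 2.86% had as many covered bases as the cad window. In 100 kb centred on the gene interval 38936 bp were covered, and 1.10% of 2277 windows of that size had as much. In 50 kb 29788 bp were covered and 0.0876% of 2282 windows had as much, so this share rests on very few windows. The 0.158% given above for the gene interval itself came from 22852 windows of 18 kb placed every 1 kb. All these shares come from windows of different lengths, so they are not directly comparable. The 50 kb window held 11 of the 17 peaks.

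**Figure D4:**
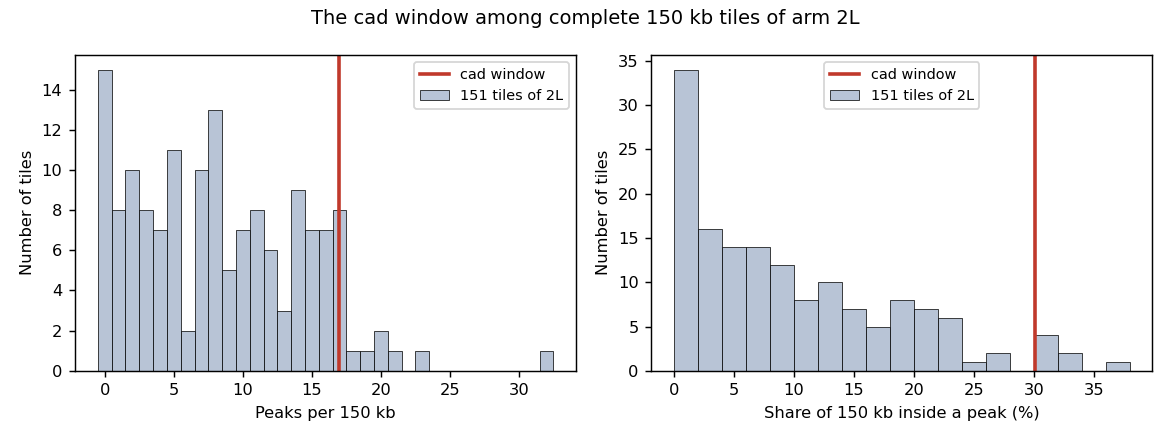
Peaks per 150 kb tile (left) and share of each tile inside a peak in percent (right) for the 151 complete tiles of 2L, with the cad window as a red line. The line stands at 17 peaks and 30.1%, above the upper quartiles of 13.5 peaks and 15.6%.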

How the data were processed

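The deposited file of the ChIP sample lists peaks called with MACS, per the file headers, from reads aligned with Bowtie to BDGP5, per the submitters' processing notes. Versions, settings, the use of input and the pooling of replicates are not stated there. The score of each peak is as deposited by the authors and is not defined in the file. Broad enrichment can be split by a caller into several peaks, so covered bases and merged blocks are given beside counts. Peaks were analysed with Python 3.11.15 and pandas 2.3.3. Midpoints decided membership, tiles lay at whole multiples of 150 kb between the first and the last peak of 2L, and windows, merging and counts were tested on simulated peaks. Every peak of the window was named, with the 3 nearest protein-coding genes on each side of cad. The alternatives were score minimums, merging, other windows and wider intervals. Members and comparisons were chosen with earlier results of these data known. No gene positions of BDGP5 were used, so the gene interval is approximate, and no sequence was used.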

Additional observations from a re-analysis of the deposited data

How the results depend on the processing

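The count of 17 peaks in the window was 11 when only peaks at or above the median score of the list were kept, and 13 to 17 under the other 3 alternatives. The share of windows with at least as many peaks, 9.93% on 2L, was 5.30% at or above the median score and 1.36% for 50 kb centred on the gene interval. It was 6.06 to 15.1% under the other 7, the highest being that of tiles of the 5 large arms. The share with at least as many covered bases, 4.64%, was 0.0876% for 50 kb and 1.10% for 100 kb centred on the gene interval, and 2.65 to 5.15% under the other 7; these smaller windows hold the covered gene interval with less of its surroundings by construction. Merging across gaps of up to 500 bp left 2 of the 5 peaks of the gene interval, since it joins 4 of them, and the count was 4 to 6 otherwise. The covered bases, the merged block and the medians of width, score and midpoint distance kept within 1.5 times or within the exact 95% binomial interval of the median. That interval treats neighbouring peaks of 1 list as independent, so it is only a yardstick. Merging raised the median midpoint distance from 5311 to 7950.25 bp, just under the interval's upper end of 7961.5 bp. The merged value on 2L was 7902.5 bp. The tiles away from the ends of 2L, the covered bases of the gene interval with its 18 kb windows, wider edges and score minimum, the merged block with its merging distances, the close high-scoring pairs and the peaks of like width were chosen after seeing the data. The planned search for the Caudal motif in the cad promoter was not run. No paired analysis was possible because 1 peak list stands for both ChIP replicates, for which reason no replicate could be left out. The unknown depth limits what a stretch without peaks can show.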
